A study of Homo sapiens with 4 samples.

Results

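HEC-1A is an ERα-negative line established from a moderately differentiated human endometrial adenocarcinoma. Its response to silencing of Efp was described from the pair of arrays labelled HEC-1A_siEfp and HEC-1A_siControl, 2 of the 4 arrays of the series. The other pair comes from ERα-positive Ishikawa cells. Each of the 4 conditions was measured on 1 array. Both lines were kept in DMEM with 10% fetal bovine serum and transfected with siRNA against Efp or with control siRNA, and biotinylated cRNA was made from 150 ng of total RNA per array. The siEfp duplex and the time after transfection are stated for the Ishikawa arrays alone. For the HEC-1A arrays the sources used here give neither, and each line is an established culture, so the values describe 1 transfection per condition. Signals are log2 RMA values, given for siControl-treated and then for siEfp-treated HEC-1A cells, and a difference is the siEfp signal of a gene minus its siControl signal on that scale. There were 18417 genes in all, and 769 of them had more than 1 probe set, whose values were averaged. No difference could be tested, since 1 array per condition leaves no replicate error. As a description of the spread, the SD of the differences of the 200 genes nearest in mean HEC-1A signal, called here the like-signal SD, is given beside some values. It ranged from 0.17 to 0.34.

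Efp, whose official gene symbol is TRIM25, is a RING finger E3 ubiquitin ligase that was found as an estrogen-responsive gene. It marks the cell cycle brake 14-3-3σ for degradation and it ubiquitinates RIG-I, the cytoplasmic sensor of viral RNA, which signals through MAVS to the kinases that activate NF-κB and the interferon regulatory factors. NF-κB is a family of dimeric transcription factors held in the cytoplasm by IκB proteins. When an IκB kinase is switched on, the IκB is destroyed and the dimers enter the nucleus, where they bind κB sites of cytokine, adhesion and survival genes. In endometrial epithelium estrogen drives growth through ERα, and a line without ERα has lost that route.

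TRIM25 was lower in the HEC-1A cells given siEfp, which is the direction of the label. Its log2 signal was 9.50 in siControl-treated cells and 7.93 in siEfp-treated cells, a difference of -1.57 or 2.97-fold. The like-signal SD there was 0.27. In Ishikawa cells the difference of TRIM25 was -1.46. SFN, the gene of 14-3-3σ, had log2 signals of 9.77 and 10.20 in the HEC-1A cells, a difference of 0.43 with a like-signal SD of 0.26.

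The labelled identity of the cells was set against marker genes. Of 8 epithelial markers 4 were at or above the median gene signal on both HEC-1A arrays, among them KRT18 at 11.77 and 11.73 in siControl- and siEfp-treated cells. The adherens junction cadherin CDH1 was at 4.07 and 3.74 in HEC-1A cells, while it was at 10.22 in siControl-treated Ishikawa cells. At or above the median on both HEC-1A arrays were 3 of 4 measured endometrial lineage markers. PAX8, a transcription factor of the Müllerian lineage, was at 10.17 and 9.88, SOX17 at 7.19 and 6.94, and PAX2 at 6.58 and 6.28. The remaining marker, EMX2, was below the median at 4.38 and 4.51, while it was at 8.57 in siControl-treated Ishikawa cells. ESR1, the gene of ERα, was at 4.45 and 4.77 in HEC-1A cells, under the median gene signal, and at 6.91 and 6.65 in Ishikawa cells. ESR2 and PGR were also below the median on both HEC-1A arrays. Of the stromal, endothelial and immune markers 1 of 6, 0 of 4 and 1 of 4 reached the median in siControl-treated cells, namely COL1A1 and CD68. Their summed log2 signals were 27.13, 15.62 and 19.03 in siControl-treated cells and 27.25, 14.88 and 19.12 in siEfp-treated cells. That of the epithelial markers was 61.25 and 58.82. The leukocyte gene PTPRC was at 3.17 and 3.05. The part of other cells in the differences below was not tested.

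Among genes with a probe set of 1 symbol, lower genes outnumbered higher ones at large differences in the siEfp-treated HEC-1A cells. A decrease of 2-fold or more was measured for 50 of the 18417 genes, which is 0.271% of all, and an increase of that size for 19, or 0.103%. Of the probe sets without a symbol 143 were lower and 140 higher by 2-fold or more, and of those with several symbols 0 were lower and 11 higher. At a 1.5-fold difference 375 genes (2.04%) were lower and 246 (1.34%) higher. Whatever the size of the difference, 8790 genes were lower, which is 47.7%, and 9594 higher. The median difference was 0.01 with an SD of 0.26, and 95% of genes lay from -0.55 to 0.49. The decrease reached 3-fold in 5 of the 50 and 2.5-fold in 17, and the increase reached 3-fold in 2 of the 19. The 50 lower genes were 3.38 to 7.03 like-signal SDs from 0, and 47 of them had at least the median gene signal on 1 of the arrays. The 19 higher genes were 3.44 to 7.12 like-signal SDs from 0, and 12 of them reached the median signal. IL6ST at -1.01 was the last gene inside the limit on the lower side. PLAT, the tissue plasminogen activator, was just outside it at -0.995, or 1.99-fold, followed by SFXN3, GPR39, RRAS and ACSL1. On the higher side ZNF594 was the last inside, and BCL6 at 0.99, PLLP at 0.98 and FRK at 0.97 were just outside. Some of these crossed the limit under another scaling. After a second quantile normalization PLAT and BCL6 were inside it and ZNF594, at 0.98, outside.

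**Figure D1:**
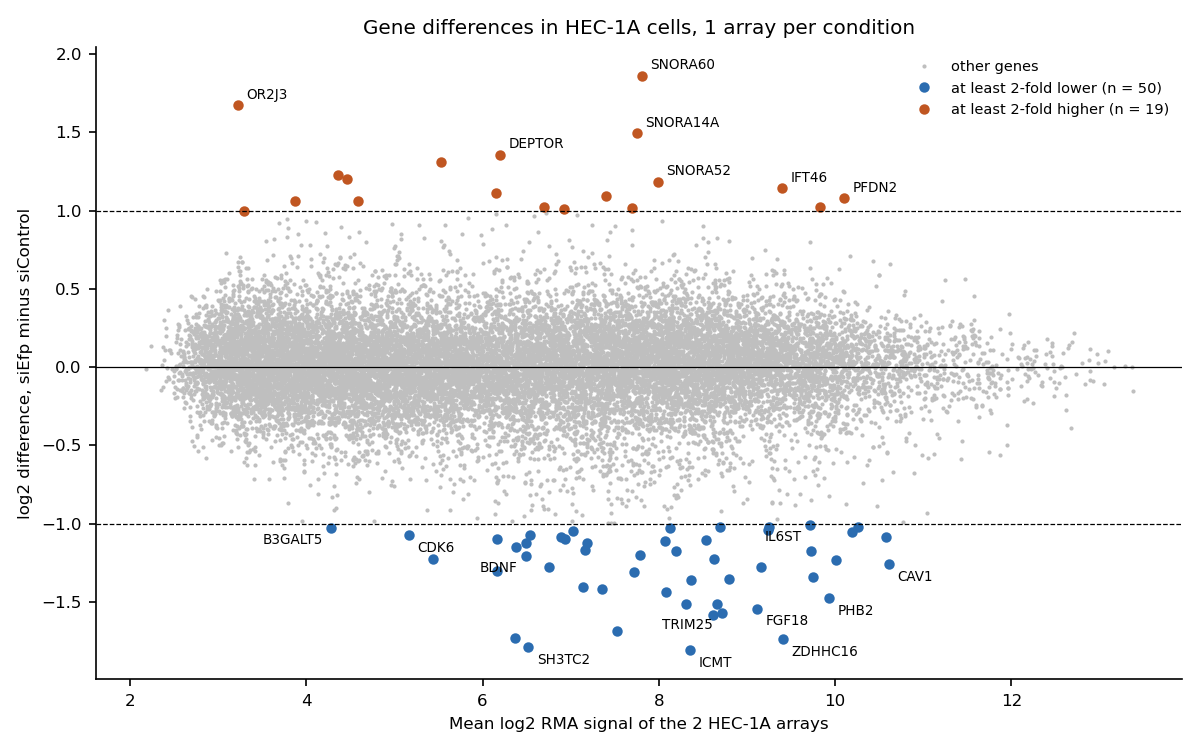
Difference in log2 signal, siEfp minus siControl (y axis), against the mean log2 RMA signal of the 2 HEC-1A arrays (x axis), 1 point per gene, with 1 array per condition. The dashed lines mark 2-fold. Blue points are the 50 genes lower by 2-fold or more, which mostly have signals above the median, and orange points the 19 higher ones, with SNORA60 at the top at 1.86.

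The genes furthest down included ICMT and ZDHHC16, enzymes of protein lipid modification. ICMT, the methyltransferase that caps the prenylated cysteine of CAAX proteins, was at 9.26 in siControl-treated and at 7.45 in siEfp-treated cells, a difference of -1.81 or 3.51-fold, and was the lowest of the 18417 genes. ZDHHC16, which adds palmitate to cysteines of its substrates, was at 10.28 and 8.54, or -1.74. ZDHHC13, a family member with ankyrin repeats, was at 9.24 and 8.01, or -1.23. GOLGA7, the partner that stabilises the Ras palmitoyltransferase ZDHHC9, was at 10.31 and 9.14, or -1.18. ZDHHC9 itself had a difference of -0.33. ZMPSTE24, the protease that trims CAAX proteins, was at 9.86 and 9.05, or -0.81, while RCE1, the other CAAX protease, had -0.14. Among 15 measured genes of prenylation and CAAX processing 12 were lower, 1 of them at least 2-fold, with a median of -0.13, beside 0.01 for all genes. Among 33 genes of palmitoylation 19 were lower, 3 of them at least 2-fold, and the median was -0.06. ZDHHC20 stood at the other end of that list, with 7.80 and 8.52, or 0.72. The low values were those of single enzymes, with the median of the family near that of all genes.

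Caveolae are flask-shaped pits of the plasma membrane built from caveolins and cavins, and a gene of each kind was lower. CAV1, the caveolin that forms the coat, was at 11.24 in siControl-treated and 9.98 in siEfp-treated cells, a difference of -1.26 or 2.39-fold. CAVIN1, the cavin without which caveolae do not form, was at 8.06 and 6.64, or -1.42. CAVIN3 had a difference of -0.29 and the membrane-bending ATPase EHD1 one of -0.55. CAVIN4, a cavin of muscle that was dim here, had 0.26. Of 13 measured caveola genes 11 were lower (84.6%, beside 47.7% of all genes), with a median of -0.21. The list holds CAV1 and CAVIN1 and was drawn up with earlier results of these data known, so its count is a description.

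The lower genes included the receptor chains IL6ST, IL10RB and TGFBR2. IL6ST, or gp130, the chain shared by the receptors of IL-6, LIF and oncostatin M, was at 10.22 and 9.21. IL10RB, the chain shared by the receptors of IL-10, IL-22 and the type III interferons, was at 8.62 in siControl-treated and 7.51 in siEfp-treated cells, a difference of -1.11. TGFBR2, the kinase that binds TGF-β first, was at 9.76 and 8.72, or -1.04. Its partner TGFBR1 had a difference of -0.39, the coreceptor TGFBR3 one of -0.40 and the signal carrier SMAD3 one of -0.58. Over 50 genes of TGF-β ligands, receptors and SMADs the count was even, with 25 lower and a median of -0.00. BAMBI, a pseudoreceptor that dampens TGF-β, was at 5.88 and 6.57, or 0.69, and ID2, which blocks DNA binding of helix-loop-helix factors, at 10.21 and 10.73, or 0.52.

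The other members of the gp130 route were less far from 0 than IL6ST. The ligand-binding or signalling chains IL6R, OSMR and LIFR had differences of -0.26, -0.23 and -0.10. The ligands LIF and OSM had -0.42 and -0.54, and IL6 was dim at 3.46 and 3.22. The kinase JAK1 was at 0.08 and STAT3, the factor that gp130 activates, at -0.17. The feedback inhibitors SOCS2 and SOCS3 had -0.57 and -0.44. BCL6, a transcriptional repressor that STAT factors regulate, was at 6.23 and 7.21, or 0.99, the highest of the list. Of 25 measured genes 16 were lower, 1 of them at least 2-fold, and the median was -0.17. In the class II cytokine receptor family, to which IL10RB belongs, 6 of 12 genes were lower with a median of -0.02. The interferon receptor chains IFNAR2 and IFNGR1 had -0.64 and 0.42.

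The secreted proteins FGF18, BDNF, THBS1 and MYDGF were among the products of the lower genes. FGF18, a growth factor of the FGF8 subfamily, was at 9.89 in siControl-treated and 8.34 in siEfp-treated cells, a difference of -1.54 or 2.91-fold. It was the furthest from 0 of the 50 lower genes when counted in like-signal SDs, at 7.03. BDNF, a neurotrophin, was at 7.10 and 5.89, or -1.20. THBS1, a matricellular protein that activates latent TGF-β, was at 9.06 and 7.55, or -1.51. MYDGF, a secreted protein of the endoplasmic reticulum, was at 8.65 and 7.62, or -1.03. Other matrix genes lay between 1.5- and 2-fold lower. The fibril-associated collagen COL12A1 had -0.88, the CCN proteins CCN1 and CCN2 had -0.82 and -0.67, and TGFBI, a TGF-β-induced matrix protein, had -0.71. Of 103 genes of integrins and matrix 57 were lower, 6 of them at least 1.5-fold, and 0 were 1.5-fold higher. The highest member was LAMA4, a laminin chain, with 0.48. The median of the list was -0.05, and it was -0.13 over its brighter genes.

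Calpains are calcium-dependent proteases, and CAPNS1 is the regulatory subunit that the ubiquitous calpains share. CAPNS1 was at 11.12 and 10.04 in siControl- and siEfp-treated cells, a difference of -1.08. CAPN2, a catalytic subunit that pairs with it, was at 9.72 and 8.85, or -0.87, while CAPN1, the catalytic subunit of the other heterodimer, had 0.02, of the other sign once a trend with signal was removed. CAPN5 had -0.74 and CAST, the calpain inhibitor calpastatin, -0.66. Of 13 measured genes of the list 4 were lower by 1.5-fold or more. The list was drawn up with the value of CAPNS1 known, so its count is a description. The median of the list was -0.06, and it was -0.66 over its brighter genes, those with at least the median signal.

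Among mitochondrial genes, single members or assembly factors of complexes were lower. PHB2, which forms the prohibitin ring of the inner membrane with PHB1 and is also known as a repressor of ERα activity, was at 10.67 and 9.19, or -1.48. PHB1 was at 11.89 and 11.62, or -0.28. DLST, the succinyltransferase core of the 2-oxoglutarate dehydrogenase, was at 8.78 and 7.61, or -1.17. LYRM7, a chaperone of complex III assembly, was at 6.95 and 5.81, or -1.15, and DMAC2, a complex I assembly factor, at 9.21 and 8.19, or -1.02. The lists set beside these genes were not low, though those of complex I and of complexes II to V hold neither DMAC2 nor LYRM7. The median was -0.04 over 31 genes of the TCA cycle and related dehydrogenases, 0.09 over 47 of complex I and 0.08 over 50 of complexes II to V. Over 26 genes of prohibitins and mitochondrial membrane organisation it was 0.01, of the other sign once a trend with signal was removed.

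**Figure D2:**
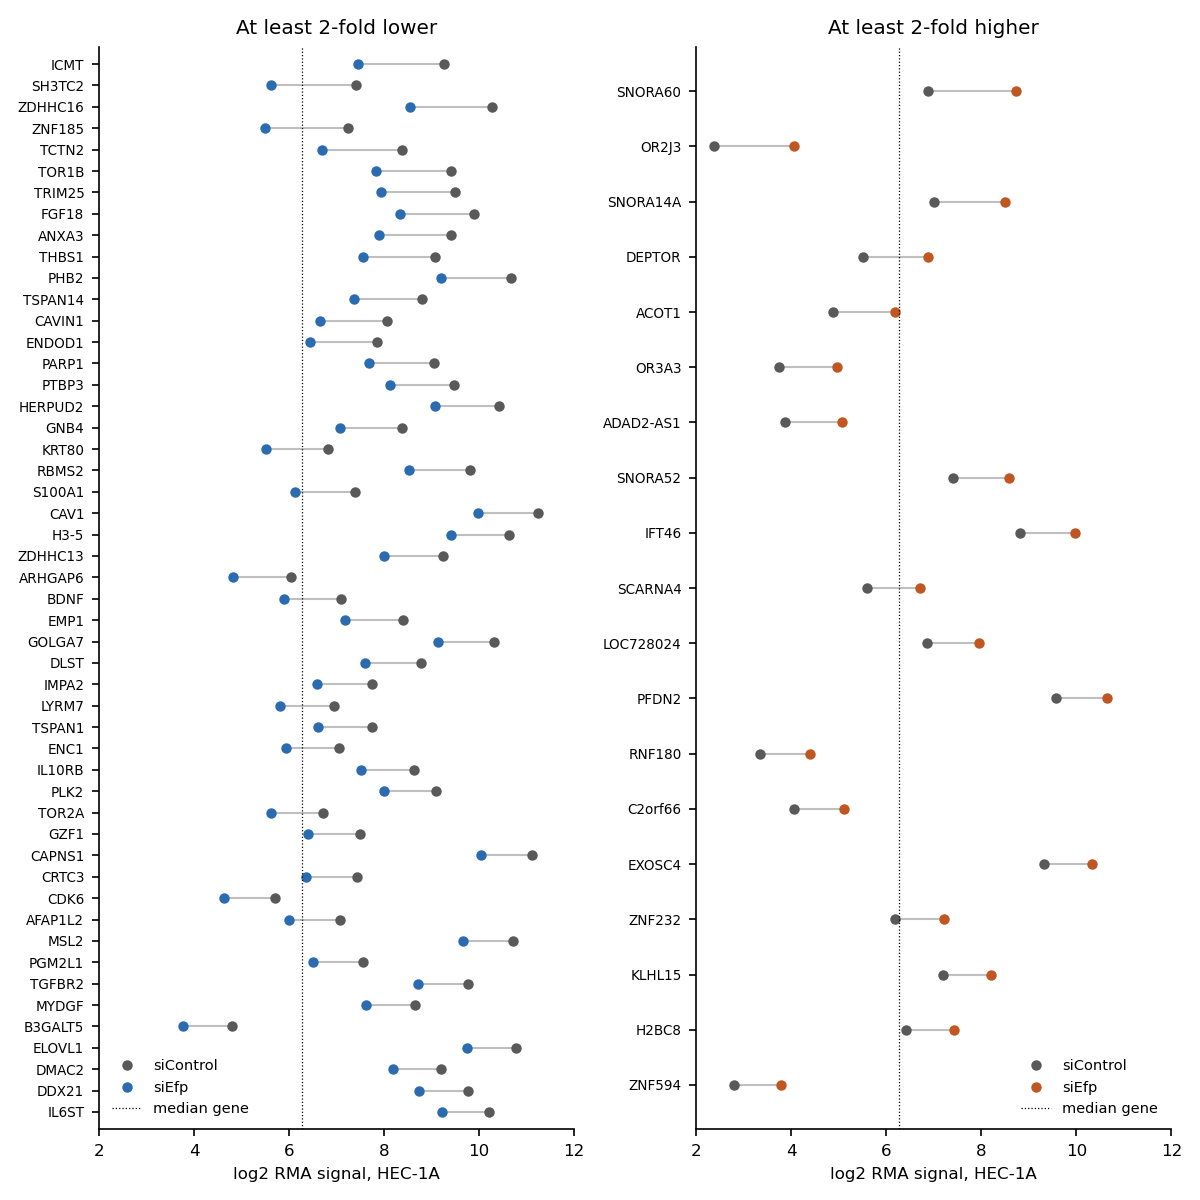
log2 RMA signal of the 50 lower (left) and 19 higher genes (right) past a 2-fold difference on the siControl array (grey) and the siEfp array (colour) of HEC-1A cells, 1 array each, ordered by the size of the difference. The dotted line is the median gene. Lower genes such as CAV1 and CAPNS1 lie far to its right on both arrays, whereas OR2J3 and ZNF594 lie to its left on both.

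Of genes of DNA repair and the cell cycle, PARP1, the sensor of DNA strand breaks, was at 9.05 and 7.69, a difference of -1.36 or 2.57-fold. Its relative PARP2 had 0.30. The DNA glycosylases NTHL1 and UNG had -0.53 and -0.41, and over 25 genes of base excision repair the median was -0.05 with 14 lower. PLK2, a polo-like kinase and p53 target, was at 9.09 and 7.99, or -1.10. CDK6, a kinase that pairs with D-type cyclins in G1, was at 5.70 and 4.63, or -1.07, below the median signal on both arrays. Its close relative CDK4 had 0.23 and the cyclin CCND1 had 0.07. Over 28 genes of G1 cyclins, CDKs and their inhibitors the median was 0.03, with 13 lower. Over 62 genes of mitosis 17 were lower and the median was 0.13, and over 52 genes of DNA replication 18 were lower and the median was 0.09. HMMR and PTTG1 had 0.54 each, and MCM6, MCM5 and MCM2 of the replicative helicase had 0.57, 0.52 and 0.47. PRC1, a midzone protein of the spindle, went the other way at -0.64, and CDC7, the kinase that fires replication origins, had -0.59. The Ishikawa medians of both lists were -0.02 for mitosis and -0.04 for replication. The difference between the lines was not tested.

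Genes for RNA-binding and nuclear proteins were also among the 50. PTBP3, a splicing regulator of the polypyrimidine tract-binding family, was at 9.47 and 8.12, or -1.35. RBMS2, an RNA-binding protein of 3′ UTRs, was at 9.80 and 8.53, or -1.28. DDX21, a nucleolar RNA helicase, was at 9.76 and 8.75, or -1.02. POLR1B of RNA polymerase I had -0.65, yet over 98 genes of ribosome biogenesis 40 were lower and the median was 0.02, beside -0.21 in Ishikawa cells. The probe set of H3-5, a histone H3 variant, was at 10.63 and 9.40, or -1.23. Whether its probes also read other histone H3 genes was not tested. MSL2, an E3 ligase of a histone acetyltransferase complex, was at 10.71 and 9.66, or -1.05. GZF1, a zinc finger repressor, was at 7.49 and 6.39, or -1.10.

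Further lower genes encode proteins of membranes and the cytoskeleton. TOR1B and TOR2A, torsin ATPases of the endoplasmic reticulum and nuclear envelope, had differences of -1.58 and -1.10, with signals of 9.41 and 7.83 for the former and 6.71 and 5.61 for the latter. Their relatives TOR1A and TOR3A, named here after their values were seen, had -0.09 and -0.10. HERPUD2, a ubiquitin-like domain protein of the same compartment, was at 10.42 and 9.08, or -1.34. TCTN2, a tectonic protein of the ciliary transition zone, was at 8.37 and 6.69, or -1.68. The tetraspanins TSPAN14 and TSPAN1 had -1.44 and -1.12, the membrane protein EMP1 had -1.20 and the phospholipid-binding annexin ANXA3, at 9.41 and 7.90, had -1.52. ZNF185, a LIM domain protein of actin, was at 7.23 and 5.50, or -1.73, and KRT80, an epithelial keratin, at 6.81 and 5.51, or -1.30. ENC1 and AFAP1L2, both actin-associated, had -1.12 and -1.07. ARHGAP6 was dim at 6.05 and 4.83, or -1.22.

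The remaining genes of the 50 belong to signalling and metabolism. GNB4, a β subunit of heterotrimeric G proteins, was at 8.38 and 7.07, or -1.31. S100A1, a calcium-binding protein, was at 7.40 and 6.12, or -1.27. CRTC3, a coactivator of CREB, had -1.08 and IMPA2, an inositol monophosphatase, -1.17. SH3TC2, an adaptor of endosomal recycling, was at 7.42 and 5.63, or -1.79, next to ICMT the lowest gene. ENDOD1, an endonuclease domain protein, had -1.41, the very long chain fatty acid elongase ELOVL1 -1.02 and the sugar bisphosphate synthase PGM2L1 -1.05. B3GALT5, a galactosyltransferase, was dim on both arrays, with a difference of -1.03.

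The 19 higher genes, 0.103% of all genes, held 4 of 192 measured small guide RNAs of the nucleolus and Cajal body. Such RNAs guide the chemical modification of ribosomal and spliceosomal RNA and are cut out of the introns of other genes. SNORA60 was at 6.87 in siControl-treated and 8.74 in siEfp-treated cells, a difference of 1.86 or 3.64-fold, the highest of the 18417 genes. SNORA14A had a signal of 8.50 with siEfp, a difference of 1.498 or 2.82-fold, and SNORA52 at 7.40 and 8.59, or 1.19. SCARNA4, a guide RNA of the Cajal body, was at 5.59 and 6.71, or 1.11. SNORA14B, a further gene of the SNORA14 family, had 0.96. The genes that contain them differed by less. RefSeq (GRCh38.p14) places SNORA14A within POR, which had 0.12, SNORA52 within RPLP2, which had 0.00, SCARNA4 within KHDC4, which had 0.13, and SNORA14B within TOMM20, which had -0.31. The strand of the containing gene was not compared, and SNHG11, which contains SNORA60, has no value of its own here. Over 192 small nucleolar and Cajal body RNAs 65 were lower, 8 were at least 1.5-fold higher and 2 at least 1.5-fold lower, with a median of 0.09. Over all genes 1.34% were at least 1.5-fold higher and 2.04% at least 1.5-fold lower. In Ishikawa cells 115 of the 192 were lower, with a median of -0.04. By class the medians were 0.05 for 61 SNORA genes, 0.12 for 115 SNORD genes and 0.17 for 16 SCARNA genes. Of 78 measured genes that contain one of them 46 were higher, 0 by 1.5-fold, with a median of 0.06.

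Among protein-coding genes of the 19, IFT46, a core subunit of intraflagellar transport, was at 8.83 and 9.97, or 1.14, while the median over 38 genes of intraflagellar transport and the BBSome was -0.05. DEPTOR, the inhibitory subunit of the mTOR complexes, was at 5.52 and 6.88, or 1.36 (2.56-fold). PFDN2, a subunit of the prefoldin chaperone, was at 9.56 and 10.64, or 1.08. EXOSC4, a core subunit of the RNA exosome, was at 9.31 and 10.34, or 1.03. KLHL15, a substrate adaptor of a cullin E3 ligase, had 1.02 and the zinc finger gene ZNF232 had 1.02. H2BC8 at 1.01 is a replication-dependent histone with near-identical copies, and the probes may read these too. The same holds for ACOT1, an acyl-CoA thioesterase with a near-identical neighbour, which was at 4.88 and 6.19, or 1.31. Over 63 replication-dependent histone genes 38 were lower and the median was -0.05. LOC728024 had 1.10. Like ACOT1, the other members were below the median signal on both arrays. They were the olfactory receptors OR2J3 and OR3A3 at 1.68 and 1.23, ADAD2-AS1 at 1.20, RNF180 and C2orf66 at 1.06 each, and ZNF594.

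In HEC-1A cells the study examined the NF-κB route with a reporter, and reported lower activity with siEfp and higher activity with Efp overexpression. By quantitative PCR it also reported lower IL6ST and IL18 with siEfp, in these cells and in tumors grown from them in mice. Here the route was read from the mRNA of its parts on the arrays, which is not a measure of reporter activity. The subunits themselves differed little. NFKB1 was at 8.31 and 8.33, a difference of 0.02, RELA at 9.24 and 9.13, or -0.11, and NFKB2 and RELB had 0.10 and -0.29. The inhibitor NFKBIA, which is also a rapid target, was at 10.13 and 9.96, or -0.17, and NFKBIB had 0.31. NKIRAS1, a Ras-like protein that slows IκB degradation, had -0.54. Of 13 genes of subunits and inhibitors 6 were lower and the median was 0.02, of the other sign once a trend with signal was removed. Upstream, TAB3, an adaptor of the kinase TAK1, was at 8.34 and 7.68, or -0.66, and CYLD, the deubiquitinase that switches the route off, at 7.08 and 7.71, or 0.62. Over 23 genes of TAK1, IKK and TRAF adaptors 13 were lower and the median was -0.04.

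Of 38 classical NF-κB targets 22 were lower and 0 reached 2-fold in either direction, with a median of -0.11, beside 0.02 in Ishikawa cells. By gene set analysis of the Ishikawa arrays, the study reported a set of TNFα signalling via NF-κB as lower with siEfp. That set is not the list of 38 used here. IRF1, an activator of interferon-responsive promoters, was at 7.04 in siControl-treated and 6.28 in siEfp-treated cells, or -0.76. The survival gene BCL2L1 was at 10.68 and 9.94, or -0.74, the caspase-8 inhibitor CFLAR had -0.49 and the urokinase PLAU had -0.45. In CFLAR the probe set of the highest signal alone had -0.07. At the other end were the adhesion molecule ICAM1, at 8.16 and 8.73, or 0.57, PTGS2 at 0.49 and SOD2, the mitochondrial superoxide dismutase, at 0.44. Targets therefore lay on both sides of 0.

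A set of 10 NF-κB-related genes that the study chose on the Ishikawa arrays was set beside this. In HEC-1A cells 8 of the 10 were lower, with a median of -0.28, and in Ishikawa cells, on which they were chosen, the median was -1.07. IL6ST was at -1.01. IL18, a cytokine of the IL-1 family, was at 7.60 and 6.66, or -0.94. EDN1, the vasoconstrictor peptide endothelin, was at 5.82 and 4.91, or -0.91, in HEC-1A cells, and at 9.78 and 8.53 in Ishikawa cells. IRF1 followed at -0.76. LAMB3, a chain of laminin, and ETS2, a transcription factor, had -0.29 and -0.27. MYC and the matrix protein TNC had -0.19 each, against -1.004 and -0.86 in Ishikawa cells. PHLDA2, an imprinted growth regulator, was at 9.80 and 10.12, or 0.32, and PTGS2, the inducible cyclooxygenase, at 3.56 and 4.05, or 0.49, whereas the Ishikawa differences of both were -0.87 and -1.13. EDN1, PTGS2 and TNC were below the median signal on both HEC-1A arrays. The set thus divides into IL6ST, IL18, EDN1 and IRF1, which were 1.70- to 2.01-fold lower in HEC-1A cells, and 6 genes within 1.5-fold of 0.

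**Figure D3:**
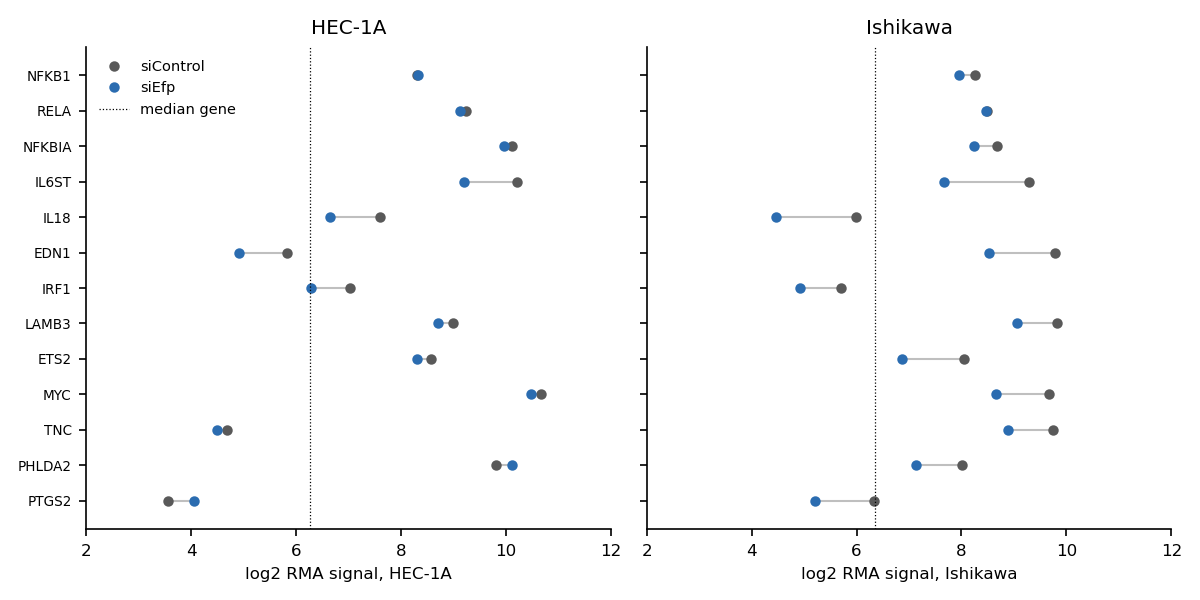
log2 RMA signal of the NF-κB subunits NFKB1 and RELA, the inhibitor NFKBIA and the 10 genes chosen by the study on the Ishikawa arrays, on the siControl (grey) and siEfp (blue) arrays of HEC-1A (left) and Ishikawa cells (right), 1 array each. The dotted line is the median gene. IL6ST, IL18, EDN1 and IRF1 are lower with siEfp on both sides, while PTGS2 and PHLDA2 are higher with siEfp on the left and lower on the right.

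κB motifs were looked for in the 250 bases before the start sites that RefSeq lists (GRCh38.p14), with the κB consensus on both strands. Of 14239 measured genes with such a promoter 1092 held a match (7.67%), as did 15 of 30 classical targets (50%), of which 8 were lower and 7 higher in the siEfp-treated cells. Of the lower genes 41 had a listed promoter, and BDNF, FGF18 and PARP1 held a match (7.32%), a share near that of all promoters. Of the 10 promoters of higher genes 0 held one. Of the 10 genes chosen on the Ishikawa arrays 7 had a listed promoter. IRF1 and LAMB3 held a match, and IL6ST, EDN1, ETS2, PTGS2 and TNC held no match in this window, nor did TRIM25. The AP-1 motif TGANTCA was found in 7.06% of all promoters and in 1 of the 41, that of EMP1. The interferon motif GAAANNGAAA was found in 3.53% of all promoters, in 1 of the 41, that of GZF1, and in 32 of 54 promoters of interferon-stimulated genes (59.3%). The estrogen response element GGTCANNNTGACC was found in 3 of the 14239 (0.0211%) and in 0 of the 41. The stretches below show matches, in capitals, of FGF18 and PARP1, which were 2-fold lower, and of 4 targets, among them the lowest (IRF1) and the highest (CXCL2) of the 15 with a match. The other matches, that of BDNF included, are not printed. Each is written 5′ to 3′ on the strand of its gene, and those of FGF18 and NFKBIA match the consensus on the opposite strand. They lie at chr5:171419513-171419562 (plus strand) for FGF18, chr1:226408158-226408207 (minus) for PARP1, chr5:132490794-132490843 (minus) for IRF1, chr2:201118599-201118648 (plus) for CFLAR, chr14:35404801-35404850 (minus) for NFKBIA and chr4:74099244-74099293 (minus) for CXCL2. In CXCL2 a further match, on the opposite strand, overlaps the one shown.
FGF18: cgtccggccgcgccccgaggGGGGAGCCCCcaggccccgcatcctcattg
PARP1: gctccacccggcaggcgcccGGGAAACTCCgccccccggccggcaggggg
IRF1: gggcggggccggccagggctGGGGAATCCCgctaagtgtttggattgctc
CFLAR: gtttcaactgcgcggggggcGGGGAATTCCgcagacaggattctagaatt
NFKBIA: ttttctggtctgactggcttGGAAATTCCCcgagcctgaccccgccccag
CXCL2: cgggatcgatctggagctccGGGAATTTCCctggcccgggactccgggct
The HEC-1A differences of these genes were -1.54 for FGF18, -1.36 for PARP1, -0.76 for IRF1, -0.49 for CFLAR, -0.17 for NFKBIA and 0.32 for CXCL2, which was dim at 2.85 and 3.17. A match is a run of letters and was not tested as a binding site.

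RIG-I signalling and the interferon response are the antiviral side of Efp. RIGI was at 7.54 and 7.15, or -0.39, and its adaptor MAVS at 8.48 and 8.10, or -0.38. ZC3HAV1, the zinc finger antiviral protein that works with Efp, was at 9.53 and 10.03, or 0.49. Of 20 genes of RIG-I sensing 15 were lower, 1 of them TRIM25 itself, with a median of -0.09. Of 66 interferon-stimulated genes 37 were lower, and a 2-fold decrease was reached by 2, TRIM25 and TOR1B. TRIM21, a ligase and antibody receptor, was at 7.29 and 6.35, or -0.94, DTX3L, a ligase that pairs with PARP9, at 7.94 and 7.11, or -0.83, and HERC6 was dim with -0.82. The membrane protein IFITM1 was at 9.13 and 9.72, or 0.59. The median of that list was -0.05, and it was -0.25 over its brighter genes. Of 57 TRIM genes 24 were lower, with a median of 0.05. Apart from TRIM25, TRIM21, TRIM68 at -0.73 and TRIM8 at -0.61 were the members at least 1.5-fold lower. In the IL-18 and IL-1 family 17 of 28 genes were lower with a median of -0.11. Its decoy receptor IL1R2 had -0.60 and the kinase IRAK2 0.68.

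Keratins and claudins, which give epithelia their filaments and tight junctions, were mostly dim here, and 10 of the 69 measured reached the median signal on 1 array or both. Of the 69 genes 44 were lower, 4 of them at least 1.5-fold, and the median was -0.09. KRT8 was at 11.40 and 10.85, or -0.55, and KRT7, CLDN4 and CLDN6 had -0.59, -0.63 and -0.62. KRT7 and CLDN4 were below the median signal on both arrays. At the other end CLDN12 was at 9.40 and 9.71, or 0.31, and the dim keratins KRT73 and KRT12 had 0.42 and 0.40. Among 28 regulators of the epithelial-mesenchymal balance 19 were lower, with a median of -0.09 that became -0.26 without genes below the median signal. They held factors of both states. ETS1, a transcription factor of invasion, was at 8.59 and 7.69, or -0.89, and the repressor ZEB1 at 9.12 and 8.57, or -0.55. ESRP2, an epithelial splicing factor, was at 7.43 and 6.63, or -0.80, and the cadherin CDH3 had -0.61.

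BCL2 family genes differed by member. The BH3-only genes PMAIP1, at 8.74 and 7.98, and BID, at 9.67 and 9.01, had -0.76 and -0.65, and the survival gene BCL2L1 had -0.74, so that factors with opposed roles were lower together. The median over 21 members was -0.01, with 12 lower. In the p53 pathway the median over 35 genes was 0.04, with 14 lower. PERP and PPM1D had 0.53 and 0.51, and MDM2, the ligase of p53 and an Efp partner, had -0.47.

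The stress response of the endoplasmic reticulum and of amino acid supply had the highest median of the 54 lists. Of 51 genes 13 were lower, and the median was 0.17, beside 0.06 in Ishikawa cells. GDF15, a stress-induced cytokine, was at 9.82 and 10.52, or 0.71. DDIT3, the factor CHOP, was at 9.41 and 10.04, or 0.63, CEBPB at 9.00 and 9.59, or 0.59, and SEL1L, of the degradation machinery of the reticulum, had 0.54. PSAT1, an enzyme of serine synthesis, was at 9.61 and 8.97, or -0.65. INSIG1, which retains the sterol sensor in the reticulum, was at 8.05 and 8.96, or 0.90, and of 26 cholesterol genes 8 were lower with a median of 0.08. HK2, a hexokinase, had -0.81 and the prolyl hydroxylase EGLN3 0.67, and the median over 40 genes of glycolysis and hypoxia was -0.02. In the receptor tyrosine kinase and ERK feedback lists EPHA2, ETV1 and EGR1 had 0.62, 0.69 and 0.62, and the medians were -0.01 over 43 and 0.01 over 33 genes, the latter of the other sign after median centring.

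**Figure D4:**
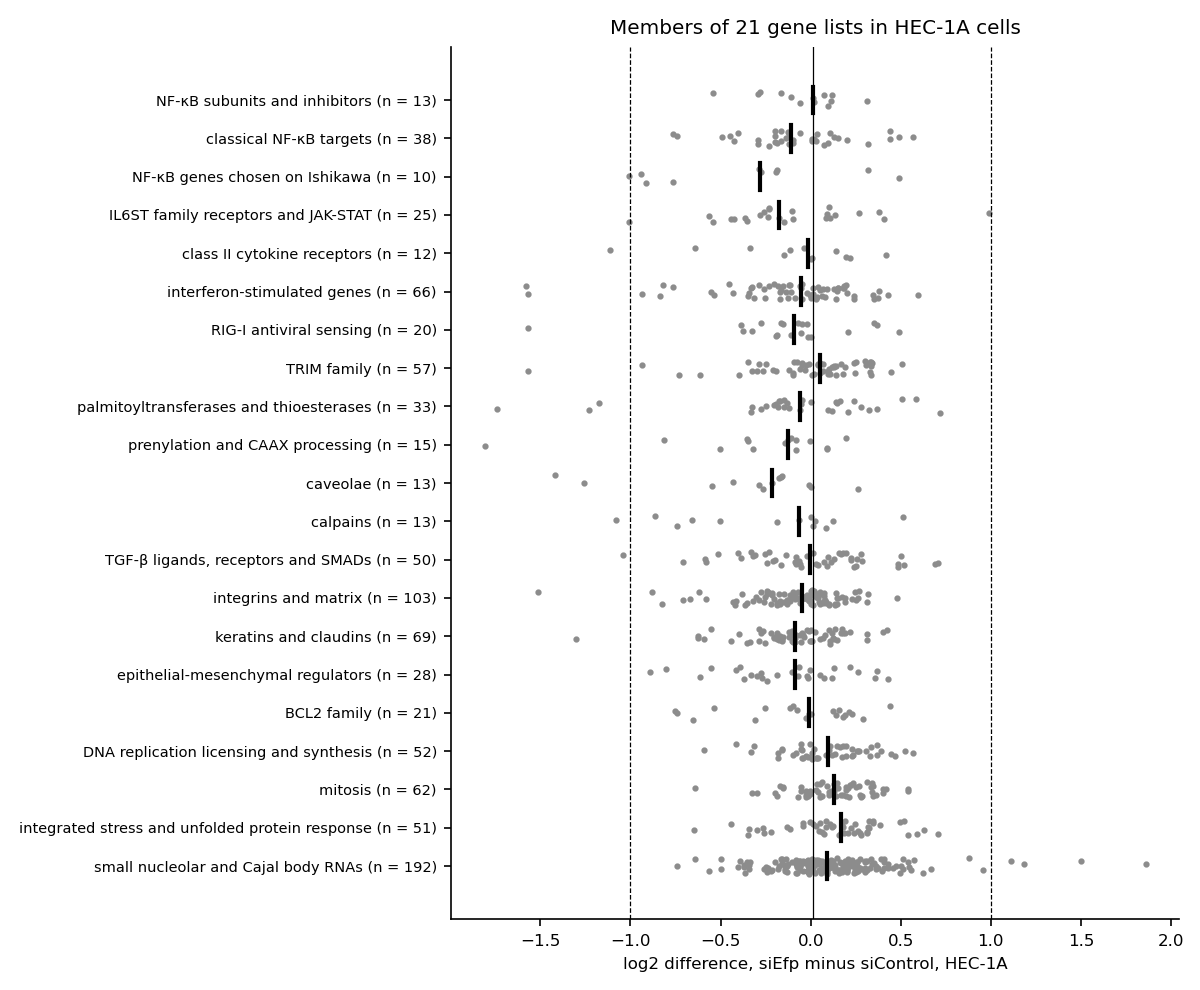
Difference in log2 signal, siEfp minus siControl, on the HEC-1A arrays (x axis) for the members of 21 of the 54 gene lists (grey points, 1 per gene, spread vertically for legibility), with the median of each list (black bar). The thin line is the median of all genes at 0.01 and the dashed lines mark 2-fold. The bars lie between -0.28 and 0.17, while single members reach -1.81 and 1.86.

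Genes closest to Efp and to the estrogen route were read as lists too. Of 18 Efp partners and substrates 9 were lower, and apart from TRIM25 they lay between -0.47 for MDM2 and 0.49 for ZC3HAV1. ISG15, the ubiquitin-like modifier, had 0.15 and UBA7, its activating enzyme, -0.54. Of 7 genes of ISG15 conjugation 2 were lower, UBA7 and TRIM25 itself. Among 28 steroid receptors and coregulators 16 were lower with a median of -0.05. After PHB2 the lowest were ESR2 at -0.44 and the mineralocorticoid receptor NR3C2 at -0.39, both dim, and the highest were GATA2 at 7.71 and 8.13, or 0.42, and the corepressor NRIP1 at 8.57 and 8.92, or 0.35. Of 24 secretory products of the endometrial epithelium 14 were lower with a median of -0.12, and 4 of the 24 reached the median signal on 1 array or both. The copper protein CP led them at 6.07 and 5.27, or -0.80.

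Proteases and their inhibitors differed in both directions. PLAT was at 7.92 and 6.93, while the metalloprotease inhibitor TIMP2 was at 9.87 and 10.34, or 0.48, and the serpin SERPINB8 at 7.64 and 8.13, or 0.49. Over 25 genes of the plasminogen system and MMPs 16 were lower and the median was -0.08. In the endothelin and prostaglandin list 14 of 20 were lower with a median of -0.12, or -0.28 over its brighter genes, and the constitutive cyclooxygenase PTGS1 had -0.58. Of 27 HOX genes 9 were lower with a median of 0.12, and HOXD8, a patterning factor, was at 6.09 and 6.79, or 0.69. Among 25 death receptor genes 14 were lower with a median of -0.01, beside -0.22 in Ishikawa cells. The decoy receptor TNFRSF10D was at 9.32 and 9.84, or 0.51, and the caspase CASP6 had -0.53. For 32 NRF2 targets the median was 0.08, with the aldo-keto reductase AKR1C3 at 8.31 and 8.97, or 0.66, and the carbonyl reductase CBR1 at -0.71. Ribosomal proteins of the cytosol and of mitochondria had medians of 0.06 over 66 and 0.07 over 75 genes. Antigen presentation (21 genes), the proteasome (47), mismatch repair (11), the IGF system (17), the MYC network (13) and imprinted genes (21) had medians of 0.02, 0.01, 0.04, 0.01, -0.03 and 0.10, and 0 of their genes reached a 2-fold difference. The medians of the proteasome, the IGF system, the MYC network and the class II cytokine receptors changed sign under at least 1 of the alternative scalings or filters.

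Over the 54 lists, which share members, medians ran from -0.28 to 0.17. They were under -0.1 in 8 lists and over 0.1 in 5, and 29 lists had 0 genes at a 2-fold difference. Of the 50 lower genes 20 are in a list, and 6 of the 19 higher genes. The large differences were thus those of single genes, with the centre of most lists near that of all genes.

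The Ishikawa arrays, which share no sample with the HEC-1A arrays, gave values for the same 69 genes. At a 2-fold difference Ishikawa cells had 148 lower genes (0.804%) and 25 higher (0.136%). Of the 50 genes lower in HEC-1A cells 46 were lower in Ishikawa cells too. In 32 the Ishikawa difference was at least 2-fold, in 8 between 1.5- and 2-fold, and in 10 under 1.5-fold or of the other sign. The median of the 50 was -1.20 in Ishikawa and -1.21 in HEC-1A cells. Among the 10 genes under 1.5-fold or of the other sign, 5 had Ishikawa differences under 0.3 in size. FGF18 was at 10.56 and 10.42 there, or -0.14, ZNF185 had -0.25, SH3TC2 -0.45, AFAP1L2 -0.07, EMP1 -0.39 and GNB4 -0.55. ARHGAP6, S100A1, BDNF and B3GALT5 were of the other sign, with 0.01, 0.11, 0.56 and 0.55. On both Ishikawa arrays 8 of the 50 were below the median signal, namely SH3TC2, ZNF185, S100A1, ARHGAP6, BDNF, B3GALT5, CAVIN1 and ENC1. For the 19 higher genes the Ishikawa median was 0.45, beside 1.11 in HEC-1A cells, on which they were chosen. Of these 16 were higher in Ishikawa cells, 2 of them at least 2-fold. IFT46 had 1.27 there and SNORA60 1.13, while SCARNA4 had 0.07, EXOSC4 0.29 and DEPTOR 0.57. Read from the other line, 127 of the 148 genes lower in Ishikawa cells were lower in HEC-1A cells and 79 at least 1.5-fold, with a median of -0.63, and 15 of the 25 higher ones were higher in HEC-1A cells, with a median of 0.17. Of all 18417 genes 8790 were lower and 9594 higher in HEC-1A cells, and 8772 were lower in Ishikawa cells. Which duplex the HEC-1A cells received is unknown, and the difference between the lines was not tested.

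**Figure D5:**
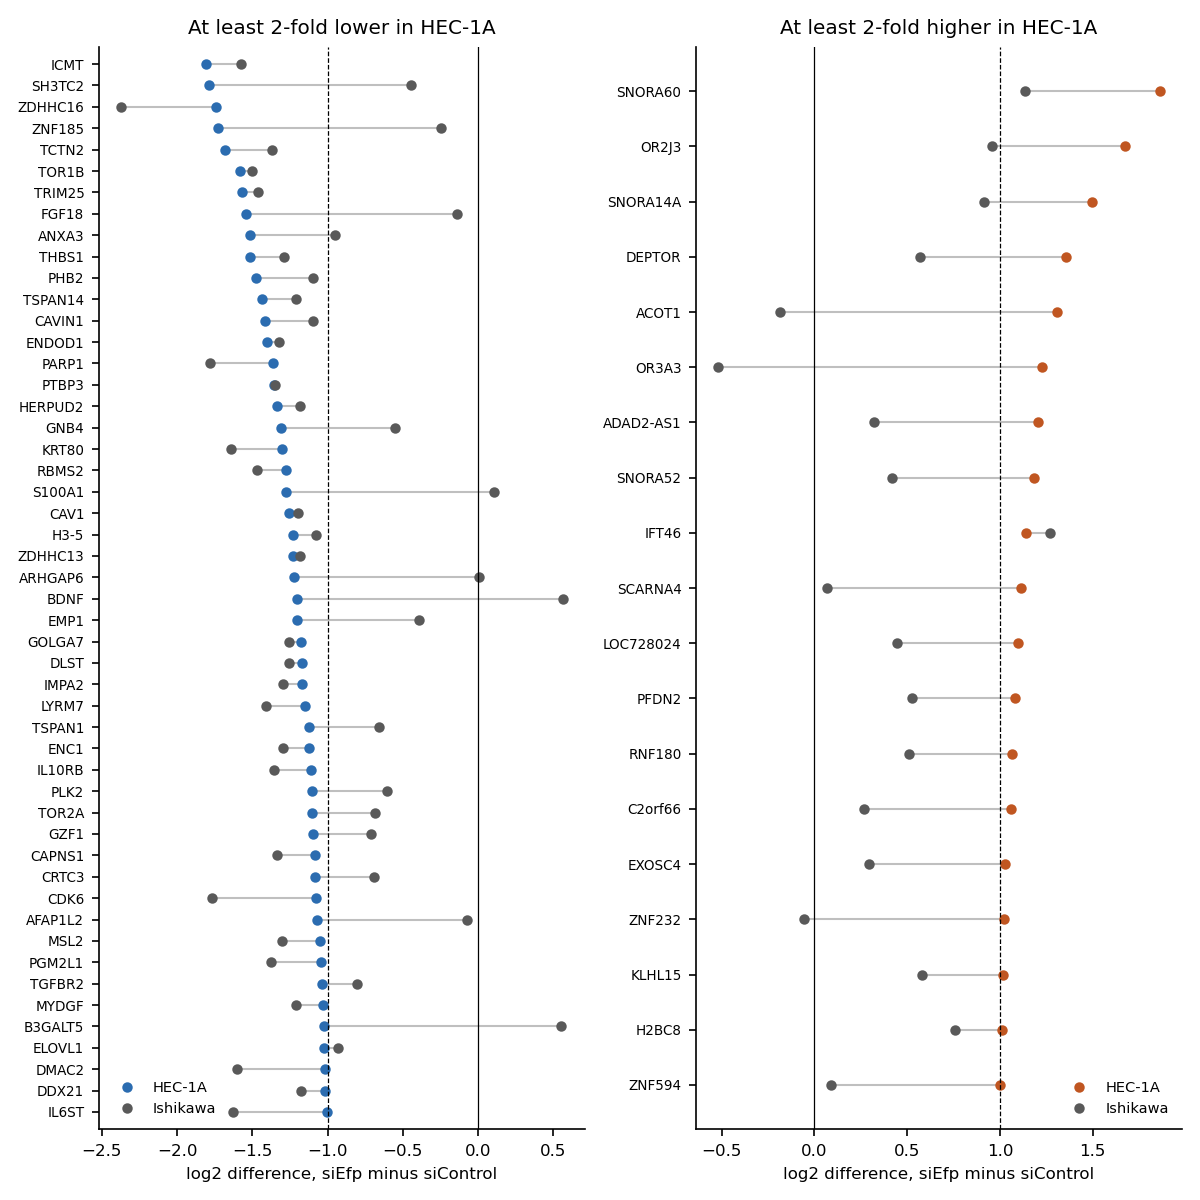
Difference in log2 signal, siEfp minus siControl, in HEC-1A (colour) and Ishikawa cells (grey) for the 50 lower (left) and 19 higher genes (right) past 2-fold in HEC-1A cells, 1 array per condition and line. The dashed line marks 2-fold and the solid line 0. On the left 46 of 50 grey points lie below 0, with S100A1, ARHGAP6, BDNF and B3GALT5 above it. On the right 18 of 19 HEC-1A points lie further from 0 than the Ishikawa points. Both sets were chosen on the HEC-1A values, which favours larger differences there.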

How the data were processed

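RNA of 4 cultures was measured on 1 array each. The authors deposited log2 signals, which per the labels come from RMA in Affymetrix Expression Console. Versions and build: not given in the sources used here. The method brings the arrays to one distribution and compresses differences of dim probe sets. The paper names an exon array, while the deposited identifiers belong to Human Gene 1.0 ST. From 33297 probe sets, 19460 had 1 gene symbol and were averaged into 18417 genes, 1754 had several and 12083 none, and 19429 had a gene ID in RefSeq (GRCh38.p14). The pair of HEC-1A arrays correlated at 0.993, with median probe set signals of 5.63 each. Genes were counted at 2-fold, with no test, since 1 array per condition has no replicate error and precision is limited by the number of arrays.

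The members and 54 gene lists were chosen with earlier results of these data known. Genes are named if 2-fold lower or higher, among up to 4 at each end of a list, completing a complex or family, or named in the paper. The steps were tested on simulated data. Alternatives were median centring, a second quantile normalization, removal of a lowess signal trend, a filter on dim genes, the brightest probe set and a 1.5-fold limit. Python 3.11.15, numpy 2.4.6, pandas 2.3.3, scipy 1.17.1, statsmodels 0.14.6 and matplotlib 3.10.9 were used.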

Additional observations from a re-analysis of the deposited data

Results flagged for a closer look

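Differences of opposite sign in the lines, each at least 0.5 in size and at least 2-fold in 1 line, were found for 5 genes, and the differences between the lines were not tested. BDNF had -1.20 in HEC-1A and 0.56 in Ishikawa cells. B3GALT5 had -1.03 and 0.55, and OR3A3 had 1.23 and -0.52. GPNMB, a transmembrane glycoprotein, had -0.55 in HEC-1A cells, where it was dim, and 1.18 in Ishikawa cells. LOC399975 had 0.53 and -1.08.

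Signals outside the named genes were large as well. Of the 12083 probe sets with no gene symbol 143 were at least 2-fold lower in HEC-1A cells and 140 at least 2-fold higher, or 1.18% and 1.16%. Of these 283 probe sets 54 reached the median probe set signal, and the SD of the differences was 0.36 for probe sets with no symbol and 0.26 for those with 1. Of the probe sets with several symbols 11 were at least 2-fold higher and 0 lower. What these probe sets measure is not named here.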

How the results depend on the processing

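No paired analysis was possible because each condition has 1 array, and for the same reason no replicate could be left out. The 50 genes at least 2-fold lower kept that difference under median centring, a second quantile normalization and removal of a signal trend, each of which called 53 genes, and with the brightest probe set, which called 50. The number of higher genes was 17 to 19 under these, and the calls that changed among the named genes lay near the limit. ZNF594 was lost under the first 3 settings (0.97 to 0.99) and KLHL15 without the trend (0.996), PLAT was gained under the first 3 and BCL6 after the second normalization. Without genes below the median signal 45 genes were lower and 10 higher, since fewer genes were counted, and with a 1.5-fold limit 375 were lower and 246 higher. TRIM25 stayed between -1.60 and -1.57. Of 2091 values of single genes under the alternatives 0 changed sign among genes past 2-fold. Among the others 5 values of 3 genes near 0 did, CAPN1, PACSIN2 and IGF1R, the last from -0.08 to 0.14 with the brightest probe set. A move by more than the like-signal SD was seen in 2 values, both with the brightest probe set, CFLAR to -0.07 and ESR1 to 0.70. Of 270 list medians 5 moved by 0.1 or more, all without dim genes: ISG15 conjugation from 0.15 to -0.71, interferon-stimulated genes to -0.25, regulators of the epithelial-mesenchymal balance to -0.26, endothelin and prostaglandin genes to -0.28 and calpains to -0.66. Without dim genes the ISG15 conjugation list held 2 genes, TRIM25 itself among them. A sign change was seen in 14 list medians. Depth does not apply to arrays, and the dim genes named above, such as OR2J3, ZNF594 and B3GALT5, rest on signals below the median gene.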
